A study of Homo sapiens with 16 samples.

Results

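The 10 genes described here are targets and brakes of mitogen-activated protein kinase (MAPK) signalling, measured as RNA in 2 lymphoma cell lines. They were taken by name from the authors' table of 34687 gene names, and they are EGR1, EGR2, EGR3, IER2, DUSP1, DUSP2, DUSP4, DUSP5, DUSP6 and DUSP10. Probes were found for all 10, and 8 passed the detection filter. EGR3 and DUSP4 did not pass it. HBL-1 and TMD8 are established human cell lines of diffuse large B cell lymphoma, both of the activated B cell-like (ABC) type, and were kept for 8 h with vehicle, MI-2 or z-VRPR-fmk. For each line there were 4 arrays with vehicle, 3 with MI-2 and 1 with z-VRPR-fmk, which makes 16 Illumina bead arrays in 6 groups. MI-2 is a small molecule and z-VRPR-fmk a peptide, and both inhibit MALT1, a paracaspase that links the B cell receptor to NF-kB. The doses and what the vehicle was made of are not given here. Whether a group's arrays represent separate cultures is not stated in the labels, and p-values therefore cover only array-to-array spread, part or all of which may be technical.

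In the ERK branch of the MAPK pathway, RAS and RAF pass a receptor's signal through MEK to the ERK kinases, which phosphorylate transcription factors in the nucleus. Immediate early genes such as EGR1, EGR2, EGR3 and IER2 are then transcribed without new protein synthesis. The dual-specificity phosphatases (DUSPs) remove phosphate from the activated kinases, and several of their genes are induced by the same pathway, which closes a negative feedback loop. In B cells, EGR1 is a well-known early target of B cell receptor signalling.

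Median intensities ran from 82.5 to 103, and the share of probes detected, that is, with a detection p under 0.05, ran from 34.1% to 40.8%. Of 8 B cell markers 6 were tested, of which 5 were detected on all arrays and PAX5 on 7. Of 8 ABC-type markers 5 were tested, and all 5 were detected on all arrays. The other 2 B cell markers and 3 ABC-type markers had no probe matched to their name. Of the markers of other cells, 3 of 7 for T cells, 2 of 7 for myeloid cells and 4 of 8 for fibroblasts and epithelia were tested, and CD3D, CD3E, CD3G and CD14 did not pass the filter. The markers of other cells that were tested were detected as follows: CD68 on all 16 arrays, CD2 on 11, EPCAM on 9, CD5, LYZ and CDH1 on 8 each, CD8A on 6, and COL1A1 and COL1A2 on 3 each. Of these, CDH1 was higher in TMD8 with vehicle by 4.88 (SE 0.13) and CD5 by 1.47 (SE 0.16), while EPCAM and CD8A were lower, with differences of -3.62 (SE 0.18) and -0.49 (SE 0.12), and their part in the line differences below was not tested. Levels below are log2 values after background correction and quantile normalisation, each for 1 probe of the gene, and levels of different genes cannot be set against each other. Differences were tested with limma over all 16706 genes that passed the filter, and a call is a Benjamini-Hochberg adjusted p under 0.05.

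RefSeq promoter windows on GRCh38.p14, 250 bases before to 50 bases after a gene's start, were matched for 7 of the 10 members, all but EGR3, DUSP4 and DUSP5. The 7 members had 10 windows, since EGR2 and DUSP10 have several starts. The windows of EGR1 and of 1 start of EGR2 are shown because both hold a CArG box, the element bound by serum response factor (SRF) with its ERK-phosphorylated partners, and because the RNAs of both genes differed between the lines. Capitals mark the CArG boxes, and both windows run 5′ to 3′ on the gene's strand.
EGR1: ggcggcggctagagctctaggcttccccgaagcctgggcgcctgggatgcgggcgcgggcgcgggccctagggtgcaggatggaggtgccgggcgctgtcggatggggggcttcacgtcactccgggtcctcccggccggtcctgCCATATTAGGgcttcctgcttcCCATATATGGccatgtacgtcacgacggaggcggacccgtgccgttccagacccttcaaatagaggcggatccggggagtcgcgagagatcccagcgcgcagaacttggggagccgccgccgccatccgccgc
EGR2: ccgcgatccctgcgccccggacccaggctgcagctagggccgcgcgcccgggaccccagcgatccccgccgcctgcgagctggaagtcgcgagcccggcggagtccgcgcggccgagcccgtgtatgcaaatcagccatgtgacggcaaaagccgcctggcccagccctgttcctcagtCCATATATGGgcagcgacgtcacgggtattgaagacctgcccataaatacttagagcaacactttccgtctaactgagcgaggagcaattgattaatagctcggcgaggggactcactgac
The EGR1 window lies at chr5:138465229-138465528 on the + strand and holds 2 CArG boxes, whose first bases lie 105 and 83 bases before the start. The EGR2 window lies at chr10:62816317-62816616 on the - strand and holds 1, which begins 71 bases before the start. The CArG box was searched on both strands and was found in 1.29% of 35116 RefSeq windows. The other 5 motifs searched on both strands were the cAMP response element TGACGTCA, the AP-1 site TGACTCA, the EGR site GCGGGGGCG, the ETS site CCGGAAGT and the TATA box TATAAA. DUSP1 held the cAMP response element, present in 1.85% of windows, 125 bases before its start, and a TATA box, present in 11.5%, 30 bases before it. DUSP2 held the EGR site, present in 5.07% of windows, 103 bases before its start. The AP-1 and ETS letters, present in 4.95% and 4.14% of windows, were in none of the 10, which says only that these letters are not in these windows.

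The lines were compared first, with vehicle alone. EGR1 and DUSP10 were lower in TMD8 than in HBL-1, and EGR2 and DUSP5 were higher. DUSP5, a nuclear phosphatase that acts on ERK, showed the largest difference of the 8 tested members at 13.5-fold. These 4 of the 8 tested members were called, against 37.3% of all 16706 genes (6237 genes, 3116 higher and 3121 lower in TMD8), so the members' share is read against a background in which differences between the lines were common. The median difference was 0.18 over the 8 members and 0.01 over all genes (log2). Fewer cells making an RNA and less of it per cell cannot be told apart in bulk RNA.

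EGR1 encodes a zinc finger transcription factor. With vehicle its levels were 6.54, 6.34, 6.88 and 6.56 in HBL-1 and 4.82, 4.54, 4.92 and 5.24 in TMD8, where the array at 4.54 was the only one of the 16 on which it was not detected. All TMD8 arrays lay below all HBL-1 arrays. The mean levels were 6.58 ± 0.22 (SD, n = 4) and 4.88 ± 0.29 (SD, n = 4), and the difference of -1.70 (SE 0.18, limma adjusted p = 4.46e-07) made EGR1 3.26-fold lower in TMD8. The arrays of treated cells, which do not enter these means, lay on the same sides. HBL-1 had 6.64, 6.09 and 6.77 with MI-2 and 6.67 with z-VRPR-fmk, and TMD8 had 4.82, 5.27 and 5.17 with MI-2 and 5.34 with z-VRPR-fmk.

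EGR2, a related zinc finger factor, differed in the opposite direction. Its levels with vehicle were 5.28, 4.95, 5.28 and 5.82 in HBL-1 and 6.79, 6.58, 7.41 and 6.001 in TMD8. The groups did not overlap, but HBL-1 replicate 4 and TMD8 replicate 4 were near each other. The difference was 1.36 (SE 0.25, limma adjusted p = 0.000223), or 2.57-fold higher in TMD8. With MI-2 the lines again stood apart, at 5.43, 5.74 and 5.49 in HBL-1 and 6.56, 6.91 and 7.34 in TMD8. The z-VRPR-fmk arrays did not keep this order, with 5.87 in HBL-1 and 5.39 in TMD8.

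DUSP5 levels with vehicle were 7.91, 7.89, 7.03 and 5.93 in HBL-1 and 10.99, 11.03, 11.30 and 10.44 in TMD8. Each line's replicate 4 was its lowest array, and the lines were far apart on every array. The difference was 3.75 (SE 0.33, 95% interval 3.05 to 4.45, limma adjusted p = 6e-08). MI-2 arrays had 7.41, 7.53 and 6.89 in HBL-1 against 10.99, 10.62 and 11.29 in TMD8, and the z-VRPR-fmk arrays had 6.02 and 10.86.

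DUSP10, a phosphatase with a preference for the stress kinases JNK and p38, was the most even of the 4 within HBL-1. Its levels with vehicle were 6.11, 6.10, 6.22 and 6.01 there and 5.25, 5.13, 5.61 and 5.03 in TMD8, with no overlap. The difference was -0.85 (SE 0.14, limma adjusted p = 8.74e-05), or 1.81-fold lower in TMD8. Another 3 probes carried the same gene name and differed by -0.71, -0.33 and -0.10, detected on 14, 8 and 0 of the 16 arrays. The treated arrays also lay apart, between 6.05 and 6.73 in HBL-1 and between 4.76 and 5.52 in TMD8.

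**Figure D1:**
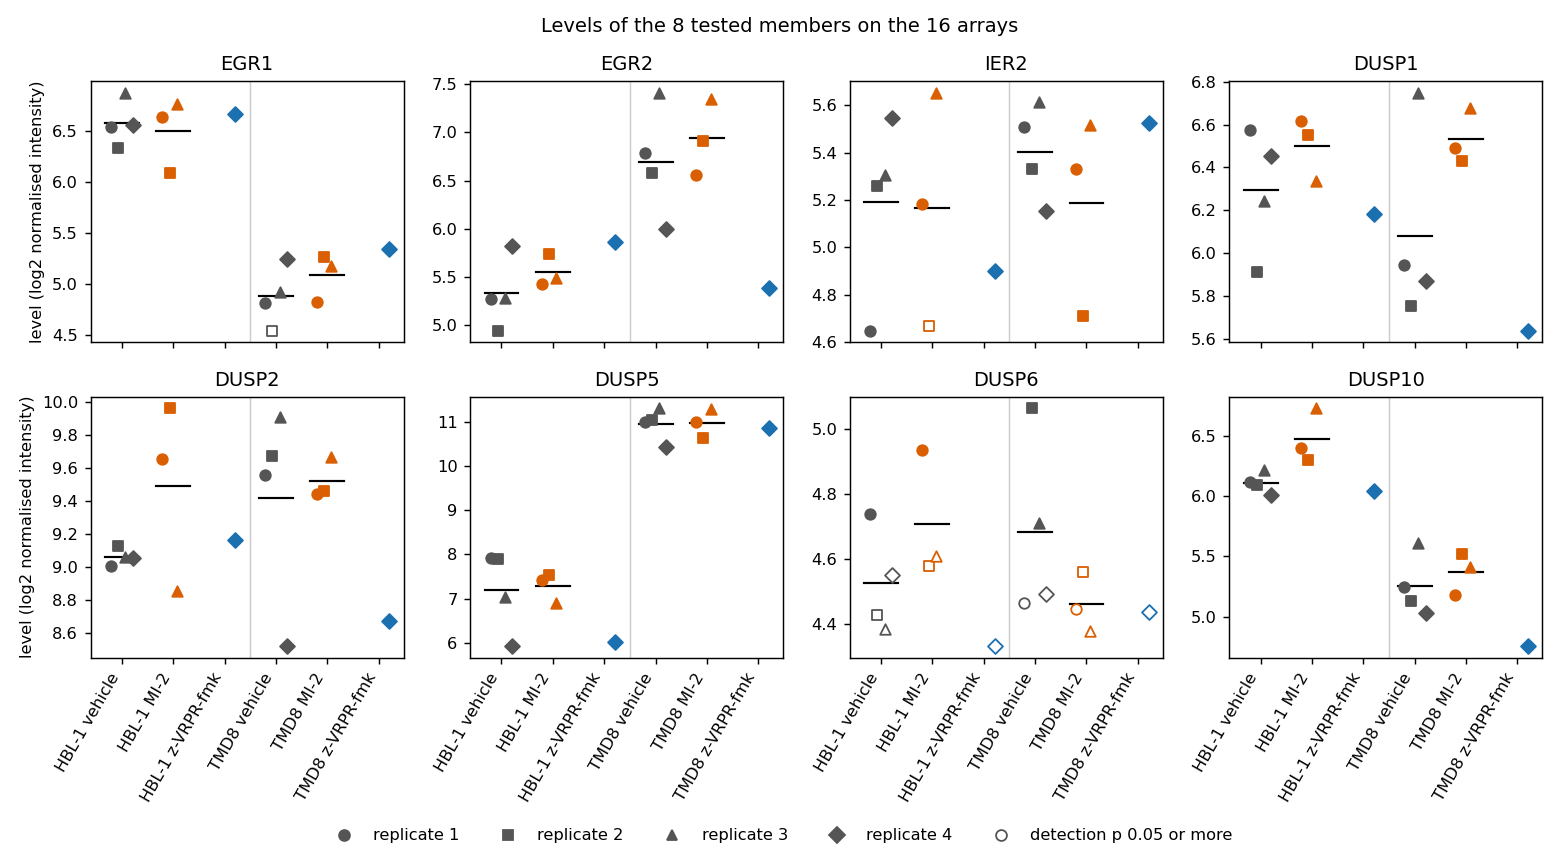
Level (log2 normalised intensity) of each tested member on the 16 arrays, by line and treatment. Colour gives the treatment, marker shape the replicate number, open markers a detection p of 0.05 or more, and bars the group mean. EGR1, DUSP5 and DUSP10 separate the lines under every treatment, while DUSP1, DUSP2, DUSP6 and IER2 overlap.

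The other 4 tested members were not called between the lines. DUSP2, a nuclear phosphatase found mainly in blood cells, had vehicle levels of 9.003, 9.13, 9.06 and 9.06 in HBL-1 and 9.56, 9.67, 9.91 and 8.52 in TMD8. TMD8 replicate 4 lay below the HBL-1 arrays and the other TMD8 arrays above them, with a difference of 0.36 (95% interval -0.17 to 0.88, limma adjusted p = 0.31). DUSP2 was called in 1 of 24 alternative fits, the one without TMD8 vehicle replicate 4, at 0.65 (limma adjusted p = 0.0153). Leaving out each array in turn gave differences from 0.19 to 0.65.

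DUSP1, a nuclear phosphatase of ERK, JNK and p38, had vehicle levels of 6.58, 5.91, 6.24 and 6.46 in HBL-1 and 5.95, 5.76, 6.75 and 5.87 in TMD8. The groups overlapped, with TMD8 replicate 3 the highest of the 8 arrays, and the difference was -0.22 (95% interval -0.62 to 0.19, limma adjusted p = 0.433). DUSP1 was called in 1 of 24 alternative fits, the one without TMD8 vehicle replicate 3, at -0.44 (limma adjusted p = 0.0351). Leaving out each array in turn gave differences from -0.44 to -0.11.

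IER2, an immediate early gene of a nuclear protein, had mean levels of 5.19 ± 0.38 (SD, n = 4) in HBL-1 and 5.40 ± 0.20 (SD, n = 4) in TMD8. Its difference was 0.21 (95% interval -0.26 to 0.68, limma adjusted p = 0.525). DUSP6, the cytoplasmic phosphatase of ERK and a common readout of ERK activity, was detected on only 4 of 16 arrays, and its other probe on 0. No difference could be read at this signal, where the interval ran from -0.15 to 0.46. The 2 probes of EGR3 were detected on 2 and 1 of 16 arrays. Both probes of DUSP4, a nuclear phosphatase, were detected on 0 of 16, with levels between 4.14 and 4.57.

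The size of these differences depended on the processing. In the authors' deposited log2 values the difference was -0.76 for EGR1, 0.69 for EGR2, 3.21 for DUSP5 and -0.21 for DUSP10, and without background correction it was -0.73, 0.66, 3.17 and -0.35. The authors' processing is not stated, and their value for DUSP10 follows the mean of its 4 probes, so it differs in more than 1 step; with the mean of the kept probes alone DUSP10 differed by -0.63. All 4 were called in each of these fits, with adjusted p of 0.00652 or less, in the same direction.

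**Figure D2:**
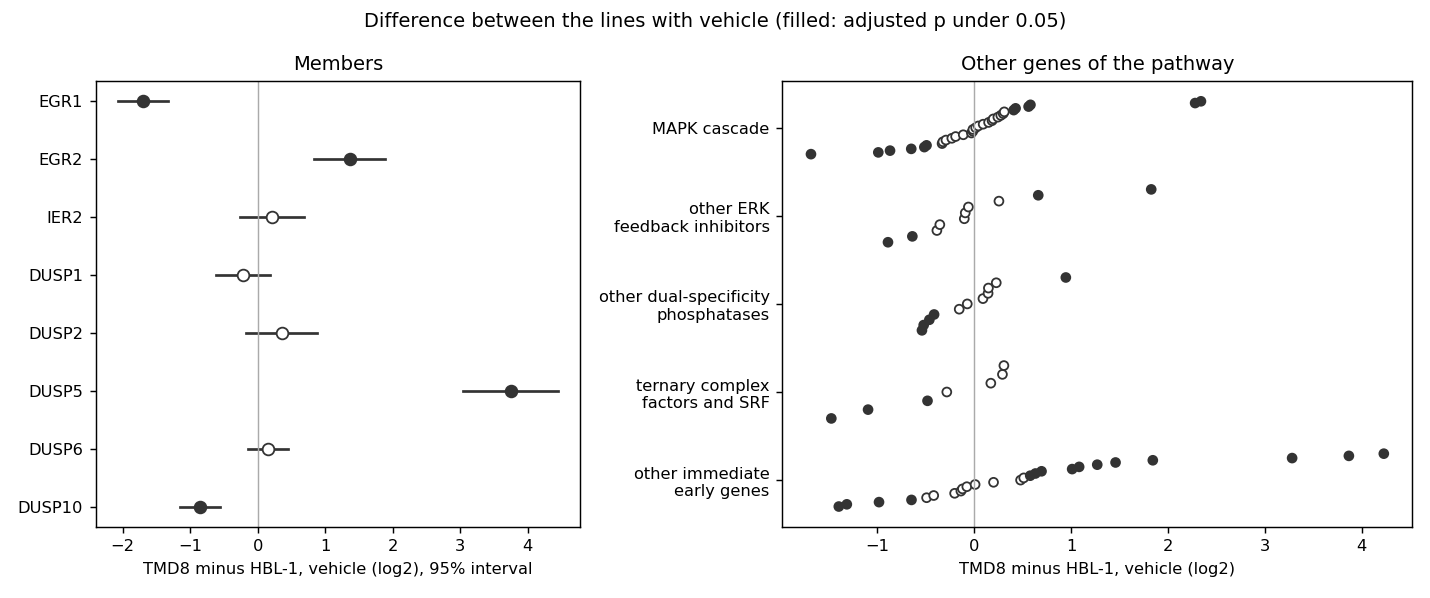
Difference between TMD8 and HBL-1 with vehicle (log2), for the 8 tested members with 95% intervals (left) and for the tested genes of 5 pathway lists, 1 point a gene (right). Filled points have an adjusted p under 0.05, and the other 4 members have intervals that include 0.

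The rest of the pathway was described from gene lists. Genes counted as higher or lower in TMD8 are those called, and 37.3% of all 16706 genes were called between the lines. Of 33 genes of the MAPK cascade 31 were tested, of which 6 were higher and 6 lower in TMD8, with a median difference of 0.01. RASGRP1 and SOS1, exchange factors that activate RAS, were higher by 2.34 (SE 0.23) and 2.28 (SE 0.17). MAP2K2, a MEK kinase, and MAPK3, an ERK kinase, were lower, with differences of -0.99 (SE 0.14) and -0.87 (SE 0.13). MAPKAPK2, a kinase downstream of p38, differed by -1.69 (SE 0.14).

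Of 7 tested genes of the list with SRF, its cofactors and ATF1, 0 were higher and 3 lower in TMD8. The list median of -0.28 was the value of ATF1, which is not a cofactor of SRF. SRF itself differed by -1.48 (SE 0.11, limma adjusted p = 5.82e-09), and its ERK-responsive partners ELK4 and ELK3 by -1.10 (SE 0.14) and -0.48 (SE 0.14). ELK3 was detected on only 10 arrays. A CArG box was found in the window of EGR1 and in that of 1 start of EGR2, and which start these cells use was not measured. The 2 RNAs differed in opposite directions from each other, by -1.70 for EGR1 and 1.36 for EGR2. Any part of SRF in these differences was not tested.

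Among 10 other tested inhibitors of ERK signalling, 2 were higher and 2 lower in TMD8. ERRFI1, an inhibitor of receptors of the EGF family, was higher by 1.83 (SE 0.13), and SPRED1, which restrains RAS and RAF, by 0.66 (SE 0.15). SPRED2 differed by -0.89 (SE 0.14), and NAB2, a corepressor that binds EGR proteins, by -0.64 (SE 0.14). Of 11 other tested dual-specificity phosphatases 1 was higher, DUSP3 by 0.95 (SE 0.12), and 4 were lower, namely DUSP11, DUSP14, DUSP18 and DUSP28, with differences between -0.54 and -0.41.

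The list of other immediate early genes had the highest median of the 5 lists, 0.48 over 25 tested genes, with 11 higher and 4 lower in TMD8. IER3 was higher by 4.23 (SE 0.24), PHLDA1 by 3.87 (SE 0.29) and ATF3 by 3.28 (SE 0.15). JUN, a subunit of AP-1, was higher by 1.84 (SE 0.21). The 4 lower genes were ETV5 at -1.40, KLF10 at -1.32, ZFP36L1 at -0.98 and JUND at -0.65. ETV5 and KLF10 were detected on 11 arrays each, with vehicle means of 4.75 and 4.61 in TMD8.

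MI-2 was then compared with vehicle. Limma called 0 of the 8 tested members in HBL-1, where it called 0.012% of all genes (2 genes), and 0 in TMD8, where it called 0% (0 genes). At an unadjusted p under 0.05, 1 member in each line stood out, DUSP10 in HBL-1 and DUSP1 in TMD8, against 5.32% and 4.63% of all genes. The members' median difference was 0.19 in HBL-1 and 0.11 in TMD8, against -0.02 and -0.01 over all genes. When median scaling replaced quantile normalisation, the median gene itself moved to -0.32 in HBL-1 and -0.17 in TMD8, so the values under that scaling are given as they are and relative to it.

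In HBL-1, DUSP10 had levels of 6.40, 6.30 and 6.73 with MI-2, all above its 4 vehicle levels. The difference was 0.37 (SE 0.15, 95% interval 0.05 to 0.69, unadjusted p = 0.0267, limma adjusted p = 0.902). Under median scaling it was -0.05, opposite in sign, and 0.27 relative to the median gene. The other probes of DUSP10 differed by 0.25, 0.11 and -0.05, detected on 14, 8 and 0 of the 16 arrays. DUSP2 had 9.66, 9.96 and 8.85, so that 2 of 3 arrays lay above all vehicle arrays and 1 below them, with a difference of 0.43 (SE 0.27, limma adjusted p = 0.938). EGR1 differed by -0.08 (95% interval -0.49 to 0.32) and EGR2 by 0.22 (95% interval -0.34 to 0.78).

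In TMD8, DUSP1 had levels of 6.49, 6.43 and 6.68 with MI-2, which lay above 3 of the 4 vehicle levels and below that of replicate 3. The difference was 0.45 (SE 0.21, 95% interval 0.02 to 0.89, unadjusted p = 0.0422, limma adjusted p = 0.999). Under median scaling it was 0.22, and 0.40 relative to the median gene. EGR1 differed by 0.21 (95% interval -0.20 to 0.61), EGR2 by 0.24 (95% interval -0.32 to 0.81) and DUSP5 by 0.03 (95% interval -0.73 to 0.79). The intervals of the EGR genes therefore leave room for differences of either sign.

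The difference between the lines in their MI-2 response was tested directly. Limma called 0 of 8 members and 0% of all genes (0 genes), and 0 members had an unadjusted p under 0.05, against 4.08% of all genes. The member with the smallest p was DUSP6, at -0.40 (95% interval -0.86 to 0.06, limma adjusted p = 0.999), on a probe detected on 0 of 3 TMD8 arrays with MI-2. With the replicate number as a block within each line, DUSP6 (-0.47, unadjusted p = 0.0244) and DUSP2 (-0.62, unadjusted p = 0.0405) were under this unadjusted level, against 6.02% of all genes, and neither passed (adjusted p of 0.792 and 0.812).

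Over both lines together limma called 0 of 8 members for MI-2, against 0.00599% of all genes (1 gene). DUSP1 differed by 0.33 (95% interval 0.02 to 0.64) and DUSP10 by 0.24 (95% interval 0.02 to 0.47), the 2 members with an unadjusted p under 0.05, and both had a limma adjusted p of 0.849. At this unadjusted level 5.7% of all genes stood out. The other probes of DUSP10 differed by 0.08, 0.05 and 0.07. With the replicate block DUSP1 differed by 0.32 (SE 0.12, limma unadjusted p = 0.0288) and DUSP10 by 0.19 (SE 0.10, unadjusted p = 0.0921). DUSP1 and DUSP5 (-0.24, unadjusted p = 0.032) were the 2 members under this level with the block, against 6.9% of all genes. Limma called 0 members there.

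**Figure D3:**
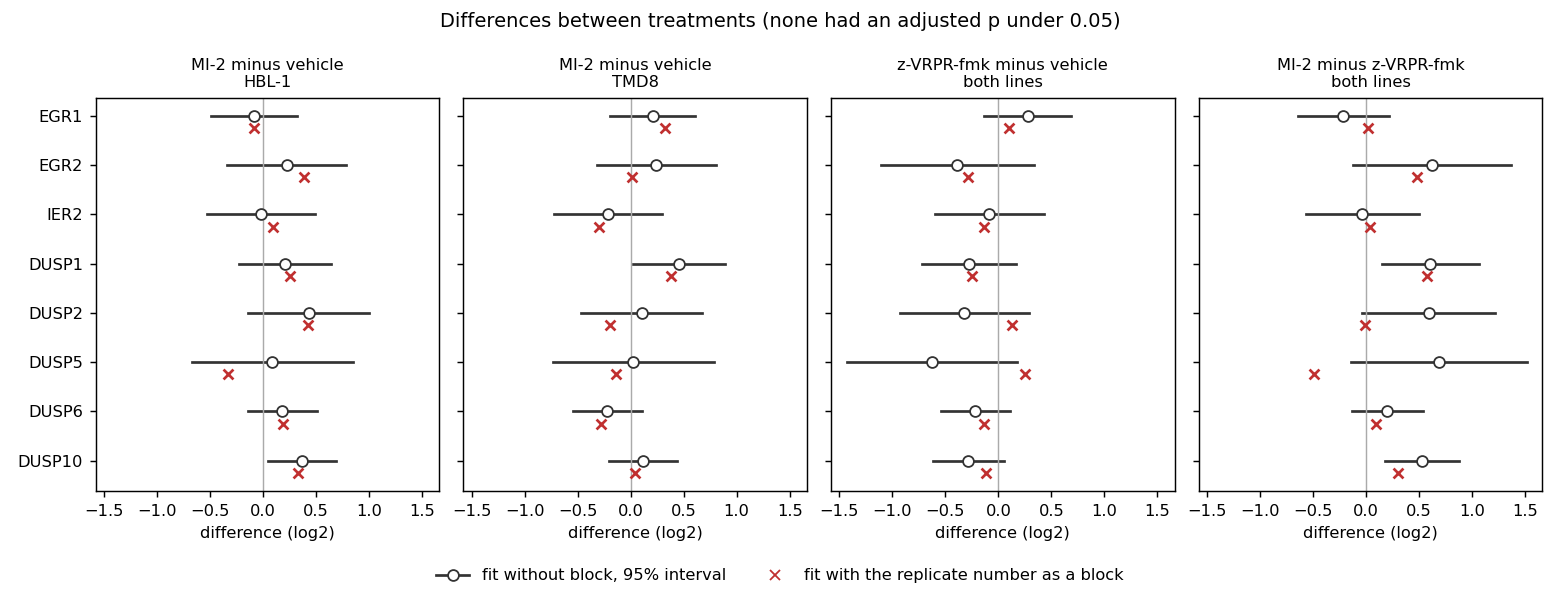
Differences between treatments (log2) for the 8 tested members, with 95% intervals from the fit without a block (circles) and the estimate with the replicate number as a block (crosses). Most intervals include 0, and for DUSP5 the 2 fits differ in sign in all 4 panels.

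z-VRPR-fmk had 1 array in each line, so its effect was fitted as equal in both lines and its spread was taken from the other groups. Limma called 0 of 8 members, against 0.00599% of all genes (1 gene), and 0 members had an unadjusted p under 0.05, against 4.12% of all genes. The members' median was -0.28 against 0.00 over all genes, and EGR1 was the only member with a value above 0, at 0.28 (95% interval -0.14 to 0.69). DUSP5 had the lowest value, -0.63 (95% interval -1.43 to 0.18, limma adjusted p = 1). DUSP10 differed by -0.28, whereas its other probes differed by 0.13, 0.15 and -0.01.

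For DUSP5 and DUSP2 these values moved with the replicate number. Both z-VRPR-fmk arrays carry number 4, and for DUSP5 the vehicle arrays numbered 4 were also the lowest of their line. In HBL-1 the pair was 5.93 with vehicle and 6.02 with z-VRPR-fmk, and in TMD8 it was 10.44 and 10.86, so that within the pairs DUSP5 was higher with the inhibitor in both lines. DUSP2 in TMD8 showed the same, with 8.52 and 8.67 in the pair against 9.56 to 9.91 on the other vehicle arrays. With the replicate number as a block within each line, the z-VRPR-fmk difference was 0.25 (SE 0.16) for DUSP5 and 0.13 (SE 0.21) for DUSP2, both opposite in sign to the fit without it, and 0 members were called. The other tested members kept their sign with the block. Their differences were 0.10 for EGR1, -0.28 for EGR2, -0.25 for DUSP1, -0.14 for DUSP6, -0.12 for DUSP10 and -0.14 for IER2.

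The block also turned DUSP5 under MI-2. Within same-numbered pairs its MI-2 level was lower than the vehicle level in 3 of 3 pairs in HBL-1, by 0.49, 0.36 and 0.13. In TMD8 it was lower by 0.41 in 1 pair, and the other pairs were level, with differences of -0.0013 and -0.011. The blocked difference was -0.33 in HBL-1 (SE 0.13, unadjusted p = 0.0331, limma adjusted p = 0.674) and -0.24 over both lines (SE 0.09, adjusted p = 0.699), against 0.09 and 0.06 without the block. DUSP2 in TMD8 was lower in 3 of 3 pairs, at -0.19 (SE 0.18) with the block against 0.11 without it. EGR2 in HBL-1 was higher in 3 of 3 pairs, with a blocked difference of 0.39 (SE 0.16, limma adjusted p = 0.692). In TMD8 EGR2 was higher in 1 of 3 pairs, at 0.01 (SE 0.16) with the block against 0.24 without it. With the block, limma called 0 members and 0 genes in each of the 6 treatment comparisons, and 4 members had an unadjusted p under 0.05 for MI-2 in HBL-1 in place of 1, against 7.07% of all genes with the block.

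**Figure D4:**
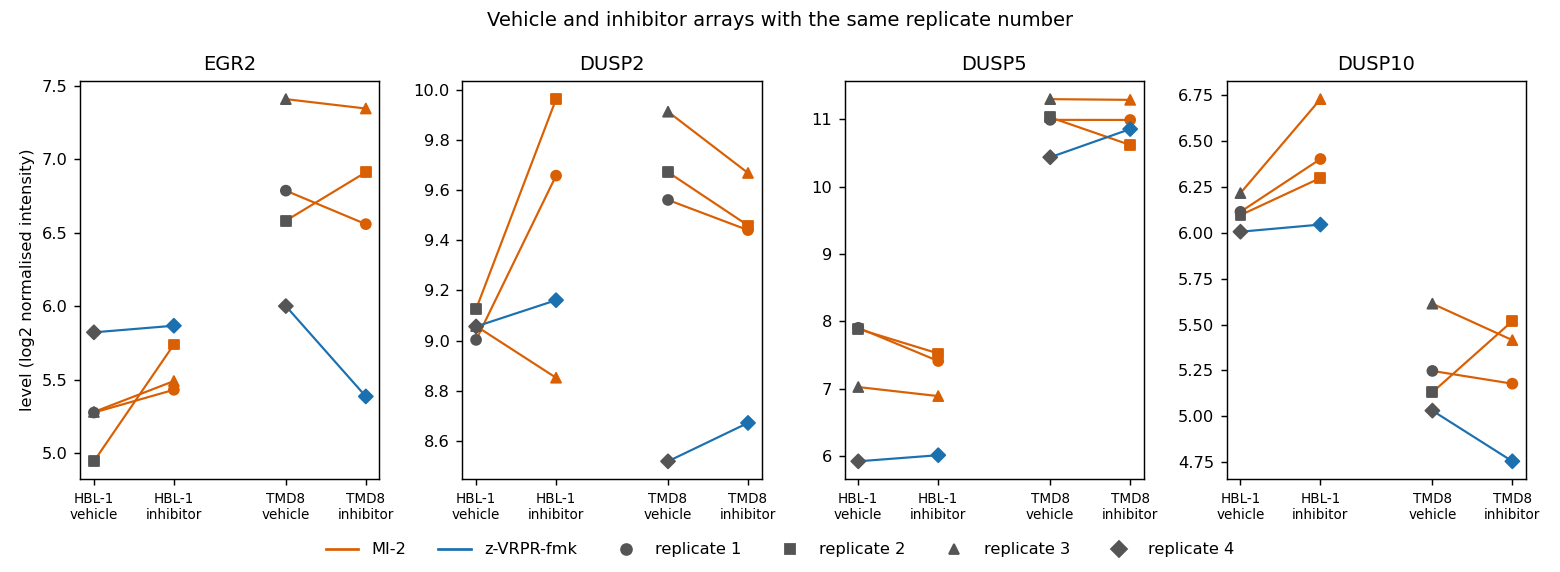
Levels (log2 normalised intensity) of EGR2, DUSP2, DUSP5 and DUSP10, with lines joining the vehicle and inhibitor arrays of the same line and replicate number. In HBL-1 the DUSP5 pairs lie at different heights, from 7.91 down to 5.93 with vehicle, and no pair differs by more than 0.49 within itself.

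MI-2 and z-VRPR-fmk were compared over both lines at 8 h, with doses not given. Limma called 0 of 8 members, against 0.018% of all genes (3 genes). DUSP10 was higher with MI-2 by 0.52 (95% interval 0.17 to 0.87, unadjusted p = 0.00548, limma adjusted p = 0.523), and DUSP1 by 0.61 (95% interval 0.15 to 1.06, unadjusted p = 0.012, adjusted p = 0.557), and neither passed. These 2 of 8 members had an unadjusted p under 0.05, against 7.42% of all genes. With the replicate block the DUSP10 difference was 0.31 (SE 0.20, unadjusted p = 0.147). The other probes of DUSP10 did not show it, with differences of -0.05, -0.11 and 0.08 without the block. DUSP1 stayed near its value with the replicate block, at 0.57 (SE 0.23, limma unadjusted p = 0.0324). DUSP5 changed from 0.69 (95% interval -0.14 to 1.52) to -0.49 with the replicate block (limma unadjusted p = 0.0233), and DUSP2 from 0.59 to -0.01. With the block these 2 members, DUSP1 and DUSP5, had an unadjusted p under 0.05, against 3.72% of all genes, and 0 members were called. Without the block EGR1 differed by -0.21 (95% interval -0.64 to 0.21) and IER2 by -0.04 (95% interval -0.57 to 0.50). These intervals do not show that the inhibitors act alike on either gene.

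The other genes of the pathway gave the same count. In each of the 6 treatment comparisons limma called 0 of 31 MAPK cascade genes, 0 of 10 ERK inhibitors and 0 of 11 other phosphatases. It also called 0 of 7 genes of the list with SRF and 0 of 25 other immediate early genes. The medians of the immediate early list were 0.12 for MI-2 in HBL-1, -0.02 for MI-2 in TMD8 and -0.12 for z-VRPR-fmk. For MI-2 in HBL-1 the list's smallest p was that of ETV5 (difference 0.53, SE 0.19, limma adjusted p = 0.846), and for z-VRPR-fmk that of JUN (difference -0.84, SE 0.23, adjusted p = 1). Between the inhibitors it was that of KLF10 (MI-2 minus z-VRPR-fmk -0.62, SE 0.15, unadjusted p = 0.000529, adjusted p = 0.442), and none of these passed.

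Last, the members were compared with each other over the 16 arrays after each line's mean was subtracted, as a description without a test, since all values share the same arrays. EGR2 and DUSP1 had the highest Pearson r of all pairs, 0.736, followed by EGR2 and DUSP2 at 0.705, DUSP1 and DUSP10 at 0.635 and EGR2 and DUSP10 at 0.631. EGR1 stood apart from these, with r of -0.23 to EGR2, -0.01 to DUSP1 and -0.62 to DUSP2. Of 16705 other genes, those most like EGR1 over the 16 arrays were SFXN2 (r = 0.869), LOC646808 (0.845), LOC730183 (0.842), HIST2H3D (0.833) and KIAA1383 (0.821). Those most like DUSP2 were PTTG1IP (0.876), CCDC23 (0.876), IFFO1 (0.872), PSMB5 (0.841) and LOC388796 (0.824). These genes were picked as the highest of 16705 values on 16 arrays, which by itself gives high r, and shared regulation was not tested.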

How the data were processed

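Total RNA of the 16 samples was labelled as biotinylated cRNA for Illumina bead arrays, per the labels' protocols. Per the file headers, the authors deposited an intensity and a detection p-value for each probe and array. The authors also deposited log2 values by gene name, with no statement of background correction or normalisation. The submitters' processing notes name Partek, with no role or version. Probe annotation is not given either, so gene names were joined to probes by value. A gene's deposited log2 value followed the mean intensity of its probes through 1 monotone curve per array, and 33711 of 34687 names matched within 0.005 log2 on all 16 arrays (0.02 for the last single probes). The other 976 were left out. After the arrays were shuffled 0 names matched, in a search for single probes and pairs only. Sets of 3 and 4 probes were not searched in this control. They gave 1939 and 414 of the matches, with DUSP10 among those of 4 probes.

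Intensities were corrected and quantile normalised with limma's neqc (limma 3.58.1, R 4.3.3, offset 16). A probe was kept if 3 or more arrays gave it a detection p under 0.05, and the kept probe with the highest mean stood for the gene (16706 genes). Tests were two-sided, with lmFit and eBayes over 6 group means. z-VRPR-fmk was fitted with 1 effect for both lines. Precision is limited by the number of arrays, with a median standard error of 0.16 for MI-2 in either line.

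Same-numbered vehicle and MI-2 arrays deviated together within a line in all 6 pairs (r 0.155 to 0.305, each over 0.1). Across lines, r of same-numbered vehicle arrays ran from -0.104 to 0.157, so the highest was over 0.1 too. The numbers were therefore used as a block within each line in an alternative fit, with which the comparison of the lines could not be made. Other alternatives were median scaling, no background correction, an offset of 50, the authors' values, no filter, detection p under 0.01, the mean of probes, trended and robust eBayes, and leaving out each array. The members and lists were chosen with earlier results of these data known. For the likeness of patterns, EGR1 and the member phosphatase with the highest mean log2 value over the 16 arrays (DUSP2) served as reference, with no comparison of levels meant. The 10 members are always named, list genes where they were called, and otherwise at most the 2 with the smallest p of a list and comparison. Markers of cell types and ATF1 were also named, to describe their lists.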

Additional observations from a re-analysis of the deposited data

Results flagged for a closer look

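EGR3, the immediate early gene that did not pass the detection filter, had 1 array far from the others of its group. On TMD8 vehicle replicate 4 the brighter of its 2 probes had a level of 4.35, below 4.50 to 4.53 on the other 3 arrays. The gap was 0.853 of the group's range, above Dixon's 95% critical value for 4 arrays. It was not detected on any of the 4. Of 20 groups tested in this way 1 was flagged, and chance flags about 1 in 20.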

How the results depend on the processing

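The calls of EGR1, EGR2, DUSP5 and DUSP10 between the lines were kept, in the same direction, in 24 of 24 alternatives, and the number of members called there was 4 to 5. The fifth was DUSP1 or DUSP2, each called when 1 TMD8 vehicle array was left out. When each array was left out in turn, the line difference ran from -1.82 to -1.59 for EGR1, from 1.12 to 1.59 for EGR2, from 3.33 to 3.99 for DUSP5 and from -0.97 to -0.78 for DUSP10. In the 6 treatment comparisons 0 members were called under any of 25 alternatives, and the smallest adjusted p of a member was 0.357. Across 56 member results, 34 changed sign under at least 1 alternative, none of them called. With the replicate block, which pairs arrays of a line by number, limma called 0 genes in each treatment comparison, whereas without it there were 2 for MI-2 in HBL-1, 1 for MI-2 over both lines, 1 for z-VRPR-fmk and 3 between the inhibitors. It changed no member's call. Scaling to array medians moved the median gene by -0.25 for MI-2 over both lines, 0.14 for the difference of the lines' MI-2 responses, -0.17 for MI-2 against z-VRPR-fmk, -0.07 for z-VRPR-fmk and -0.05 between the lines. Low signal limits DUSP6, EGR3 and DUSP4 most.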
